A study of Mus musculus with 3 samples.

Results

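Endoglin (Eng) is an accessory receptor of the TGF-β family that binds ligands such as TGF-β and BMP beside the signalling type I and type II receptors. The comparison described here set mouse PDL-L2 cells that received an siRNA pool against endoglin (siENG) and recombinant human BMP-2 against PDL-L2 cells that received a non-targeting siRNA pool (siCont) and vehicle. It used 2 of the 3 arrays of the series, 1 for each of these conditions. The remaining array, of siCont cells with BMP-2, is given as values beside them. PDL-L2 is an immortalised line from mouse periodontal ligament fibroblasts, the connective tissue cells that anchor the tooth root to bone. All cells were transfected with a pool of siRNAs, were left for 48 h, and were then exposed to vehicle or to 250 ng/ml BMP-2 for 12 h, with BMP-2 given in differentiation medium that held ascorbic acid and beta-glycerophosphate. The sources used here do not state whether vehicle cells were kept in that medium. The pair differs in the siRNA pool, in BMP-2 and possibly in medium at once, so their parts cannot be told apart from these 2 arrays, and cells given siENG and vehicle were not analysed here. With 1 array per condition there is no replicate check, no test was possible, and each difference below describes these arrays.

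BMPs bind paired receptor kinases that phosphorylate Smad1 and Smad5, which enter the nucleus with Smad4 and switch on genes such as the Id factors and the inhibitory Smads. TGF-β acts in the same way through Smad2 and Smad3. In periodontal ligament BMP-2 is known as an inducer of mineralising differentiation, to which these cells are otherwise resistant.

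Each array gave 1 signal (intensity) for each of 45101 probe sets, of which 64 are controls. The siENG array was brighter as a whole. Its 2% trimmed mean signal was 165.3, against 140.2 with siCont and vehicle and 142.8 with siCont and BMP-2, and all 18 probe sets for spiked control transcripts were brighter on it than on the vehicle array, with a median log2 ratio of 0.17. The log2 ratio of siENG BMP-2 over siCont vehicle is therefore given relative to its median of 0.22 over probe sets with a signal of at least 23 on either array, the median of all signals. A gene was counted where its higher signal was at least 152, the 75th percentile of all signals, which 7132 of 18193 genes passed. These are called genes past the limit below. Of them 628 passed on the siENG array alone and 126 on the vehicle array alone, so a dim gene could enter because it was high on 1 array, and counts and medians of lists are read with that in mind. A limit on the mean log2 signal of the pair, chosen after seeing the data, left 6767 genes with 59 at a relative ratio of 2 or more (0.872%) and 48 at 0.5 or less (0.709%). Just inside the limit of 152 on the higher signal were Usp53 and Fgfr3 at 152.0, and just outside Proser1 and H1f10 at 151.9. The robust SD of the log2 ratio over probe sets of similar mean signal, the measure of precision here, was 0.35 at mean signals of 154.8 to 227.3 and 0.22 above 1023.3. The ratio of 3' to 5' Gapdh control signals, a sign of RNA integrity, was 0.758, 0.774 and 0.804 on the siCont vehicle, siCont BMP-2 and siENG BMP-2 arrays, and its part in the ratios was not tested. Signals of a gene are listed below in that order of arrays.

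Of the 7132 genes, 78 (1.09%) had a relative ratio of 2 or more and 61 (0.855%) a relative ratio of 0.5 or less, with a median relative log2 ratio of 0.05 and a range of -2.27 to 4.24. Above 0 lay 4082 of the genes and below 0 lay 3050. These numbers, with the shares of 1.09% and 0.855%, are the background for such counts in the lists below. Without the shift for brightness the counts were 161 and 28, so that 85.2% of the genes past 2-fold were higher as deposited and 56.1% relative to the median. At a relative ratio of 3 the counts were 16 higher and 7 lower, and at 4 they were 8 and 3. The calls crowd at the threshold. Between 1.8 and 2 lay 47 genes on the higher side and 51 on the lower, and between 2 and 2.2 another 23 and 22. Genes on the higher side were led by targets of the hypoxia-inducible factors and also held BMP-responsive and some interferon-stimulated genes, while the lower side held endoglin, some cytokine and acute-phase genes and several membrane and matrix proteins.

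**Figure D1:**
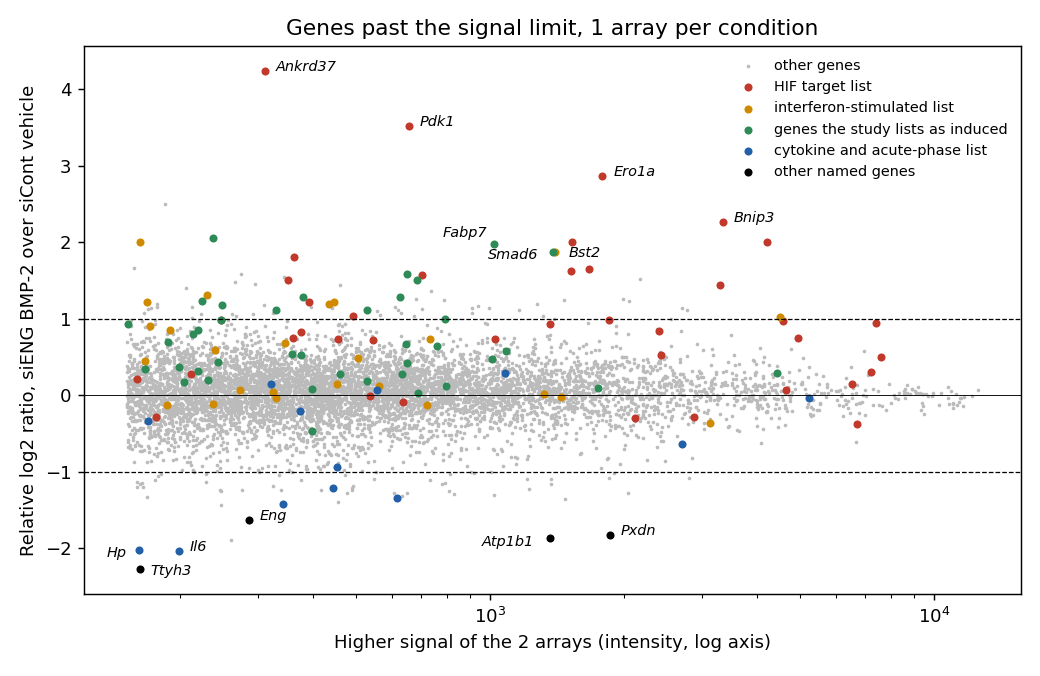
Each gene's relative log2 ratio (siENG BMP-2 over siCont vehicle) plotted by the higher signal of the pair (intensity, log axis) for the 7132 genes past the limit, 1 point per gene and 1 array per condition. Dashed lines mark ratios of 2 and 0.5, colours mark 4 gene lists, and a gene of more than 1 list has the colour drawn last. Ankrd37, Pdk1 and Ero1a stand highest, at 4.24, 3.52 and 2.86, and Ttyh3, Il6 and Hp lowest, at -2.27, -2.03 and -2.02.

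Endoglin, the target of the siRNA, had signals of 286, 298 and 108 in its brighter probe set, a relative log2 ratio of -1.63 and a relative ratio of 0.324. In the dimmer probe set the signals were 121, 120.5 and 45.3, again with a relative log2 ratio of -1.63. Either way the siENG label went with a lower endoglin signal than siCont did, and the siCont arrays hardly differed. Endoglin had the seventh smallest ratio of the genes past the limit. Of the 10 TGF-β and BMP receptors past the limit it was the only one at a relative ratio of 0.5 or less, and none was at 2 or more. The type II TGF-β receptor Tgfbr2 had signals of 1049, 1000.5 and 893 (relative log2 ratio -0.45) and betaglycan (Tgfbr3), the other co-receptor of the family, 376, 339 and 582 (0.41). The BMP co-receptor Rgmb stood at -0.38 and the BMP type I receptor Bmpr1a at -0.24, the latter with 4 other probe sets from 0.09 to 0.30.

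The PDL-L2 label was set against marker genes. Of 14 ligament fibroblast markers with a probe set, 9 were past the limit on these arrays, with a median relative log2 ratio of -0.04. Collagen I chains, collagen III, fibronectin, vimentin and periostin (Postn, a matrix protein of the ligament, 4428, 5491 and 4614) were among them, while the tendon and ligament markers Tnmd and Aspn lay below the highest signal of the Bacillus control probe sets on all arrays. Those probe sets read bacterial transcripts that mouse RNA does not hold, and their highest signal was 11.2, 13.1 and 12.1. None of 8 endothelial, 9 leukocyte, 6 epithelial or 3 neural and glial markers was past the limit. The summed signals of the leukocyte markers were 165, 144 and 246, with Cd68, a lysosomal protein, at 71.0, 50 and 118. On each array 4 of the 9 were above the Bacillus controls, among them Cd68, Csf1r (40.6, 31.4 and 47.7) and Lyz2 (11.5, 25.9 and 36.3). The pan-leukocyte gene Ptprc, the T cell gene Cd3e and the myeloid genes Itgam and Tyrobp were not above these controls on any array. Summed endothelial signals were 51.8, 62.4 and 81.6, summed epithelial signals 110, 111 and 61.7, and summed neural and glial signals 178, 155 and 189.

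The hypoxia-inducible factors (HIF) are transcription factors that oxygen-dependent prolyl hydroxylases mark for destruction. When oxygen is short, or the hydroxylases are inhibited, HIF binds a short core in promoters and enhancers and raises genes of glucose uptake, glycolysis, mitophagy and oxygen sensing itself. Of 39 HIF target genes past the limit (61 were listed and 56 had a probe set), 14 reached a relative ratio of 2 and 0 were at 0.5 or less, that is 35.9% against the 1.09% of all genes. Their median relative log2 ratio was 0.85, against 0.05 over all genes, and 33 of the 39 lay above 0. Of the 39, 8 passed the limit on the siENG array alone. With the limit on the mean signal, 13 of 37 were at 2 or more and the median was again 0.85, and over the 31 past the limit on both arrays the values were 9 and 0.76. On the siCont BMP-2 array the same list had a median of -0.07 relative to vehicle. This and the other gene lists were chosen with earlier results of these data known. Shares set against all genes are therefore a description and not independent evidence.

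Ankrd37, an ankyrin repeat protein known as a HIF target, had the largest ratio of all, with signals of 14.1, 4.3 and 311 and a relative log2 ratio of 4.24. Its siCont signals came near or fell below the highest Bacillus control, which leaves the size of this ratio poorly set. Pdk1, the kinase that shuts pyruvate dehydrogenase and so keeps pyruvate out of the mitochondrion, had 49.2, 34.8 and 656, a relative ratio of 11.4, with other probe sets at relative log2 ratios of 3.35, 2.06 and 1.87. Ero1a, the oxidase that makes disulfide bonds in the endoplasmic reticulum, had 211, 189.7 and 1792 (2.86), and its other probe sets stood at 2.59 and 2.94. Bnip3, a mitophagy receptor of the outer mitochondrial membrane, had 595, 450.3 and 3342 (2.27). Each of these genes was high on the siENG array and similar or lower on siCont BMP-2 than on vehicle.

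Fam162a, a mitochondrial protein linked to hypoxic cell death, had signals of 901, 942 and 4211 and a relative log2 ratio of 2.0. Ndrg1, a stress-responsive gene of growth arrest, had 457, 331 and 1671 (1.65), and its 4 other probe sets gave 1.52 to 1.77. Hilpda, which sits on lipid droplets and restrains their breakdown, had 106, 92.8 and 351 (1.51). In this group the siENG array alone was high. Bhlhe40, a transcriptional repressor that responds to hypoxia, TGF-β and the circadian clock, was different in that it stood stepwise, at 329, 671 and 1533 (2.0), so that its siCont BMP-2 signal lay between the others. Pgf, a placental growth factor of the VEGF family that also stands on the study's list of BMP-2-induced genes, had 107, 233 and 248 (0.99), with the BMP-2 arrays close together.

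The promoters of leading HIF targets are shown because the HIF core can be read in them directly. The sequences are the 250 bases before the transcription start in RefSeq on GRCm38.p6, on the strand of the gene and 5′ to 3′, with capitals marking ACGTG or its reverse complement CACGT. In Bnip3 the matches on both strands overlap in 1 palindrome.
Ankrd37 (chr8:45999851-46000100, minus strand): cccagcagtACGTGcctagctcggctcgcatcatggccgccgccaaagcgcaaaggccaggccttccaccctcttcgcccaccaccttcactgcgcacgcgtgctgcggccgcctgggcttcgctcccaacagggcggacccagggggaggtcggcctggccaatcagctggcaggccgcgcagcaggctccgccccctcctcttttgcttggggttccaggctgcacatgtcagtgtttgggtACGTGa
Bnip3 (chr7:138909507-138909756, minus strand): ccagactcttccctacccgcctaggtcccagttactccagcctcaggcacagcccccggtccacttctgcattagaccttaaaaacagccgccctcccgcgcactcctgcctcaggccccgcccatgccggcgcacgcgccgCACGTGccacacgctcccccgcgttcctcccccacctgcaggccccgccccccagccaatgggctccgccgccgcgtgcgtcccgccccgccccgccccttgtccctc
Ero1a (chr14:45318573-45318822, minus strand): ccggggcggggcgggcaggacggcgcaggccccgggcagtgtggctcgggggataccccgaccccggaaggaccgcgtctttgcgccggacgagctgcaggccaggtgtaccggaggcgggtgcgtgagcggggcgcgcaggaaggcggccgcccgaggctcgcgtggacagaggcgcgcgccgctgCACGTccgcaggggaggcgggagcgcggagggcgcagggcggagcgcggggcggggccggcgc
Fam162a (chr16:36071562-36071811, minus strand): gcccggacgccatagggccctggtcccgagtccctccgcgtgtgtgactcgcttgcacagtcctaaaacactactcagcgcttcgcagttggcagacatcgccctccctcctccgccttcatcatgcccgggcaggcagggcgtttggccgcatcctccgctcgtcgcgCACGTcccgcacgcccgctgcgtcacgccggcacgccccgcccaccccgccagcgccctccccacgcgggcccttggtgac
P4ha1 (chr10:59323046-59323295, plus strand): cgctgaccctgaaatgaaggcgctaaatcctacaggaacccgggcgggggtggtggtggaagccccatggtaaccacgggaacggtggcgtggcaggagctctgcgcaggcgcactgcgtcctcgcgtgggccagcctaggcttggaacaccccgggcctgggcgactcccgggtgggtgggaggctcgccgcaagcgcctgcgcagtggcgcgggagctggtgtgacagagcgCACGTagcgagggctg
Egln1 (chr8:124949255-124949504, minus strand): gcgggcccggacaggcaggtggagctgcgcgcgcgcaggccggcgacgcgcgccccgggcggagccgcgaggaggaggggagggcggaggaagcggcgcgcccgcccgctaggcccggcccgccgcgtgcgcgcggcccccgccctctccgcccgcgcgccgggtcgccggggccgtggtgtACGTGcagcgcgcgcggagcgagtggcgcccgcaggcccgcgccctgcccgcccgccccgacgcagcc
The Ankrd37 promoter held the core at 241 and at 6 bases before the start, and P4ha1 at 16 bases before it. The core was found within 300 bases around the start (250 before and 50 after) in 9 of 12 HIF targets at a relative ratio of 2 or more that had a promoter entry, namely those above and Hilpda, Hk2 and Higd1a, the last chosen after its values were seen. Among HIF targets past the limit but under that ratio it was found in 13 of 20. It is a common word of 5 bases, present in 19.6% of all 32851 promoters of the table and in 31.7% of the 5912 genes past the limit with an entry, on either strand. Over all genes at a relative ratio of 2 or more, 33 of 67 held it, and of those at 0.5 or less, 12 of 46. Pdk1 and Gys1 were without a match, which says only that these letters are not in this window. The longer form TACGTG, which overlaps the core, was in 3.2% of all promoters and in 3 of the 12 HIF targets.

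Enzymes of glycolysis, many of them HIF targets, stood on the same side. Of 15 glycolysis genes past the limit, 3 had a relative ratio of 2 or more (20% against the 1.09% of all genes) and 12 lay above 0. The median relative log2 ratio was 0.75, against -0.05 on the siCont BMP-2 array. The list shares 8 of the 15 genes with the HIF list. Below 0, and named after their values were seen, were Pfkfb4 (-0.28), Pfkm (-0.14) and Eno3 (-0.07). The phosphofructokinases Pfkp (244, 238 and 680.0, relative log2 ratio 1.25) and Pfkl (460.4, 397 and 1165, 1.12) commit glucose to glycolysis, and hexokinase 2 (Hk2, 205, 249 and 492, 1.04) traps it in the cell. The glucose transporter Slc2a1 had 806, 669 and 1856 and fell just short of the ratio at 0.98, with other probe sets at 1.15 and 0.99. Aldolase A (Aldoa) had 1996, 1879 and 4570.3 (0.97), 3 other probe sets at 1.21 to 1.22 and 1 at -0.51, so its probe sets disagree in sign.

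Genes that control pyruvate and glycogen were divided. Of 15 past the limit, 4 were at a relative ratio of 2 or more (26.7% against the 1.09% of all genes) and the median relative log2 ratio was 0.25. Beside Pdk1 these were glycogen synthase Gys1 (88.7, 92.7 and 361, 1.8), the phosphoglucomutase Pgm1 (284, 246 and 787, 1.25) and the glycogen branching enzyme Gbe1 (144, 137 and 391, 1.22), all of which act in glycogen metabolism. Pdk1, Gys1 and Gbe1 passed the limit on the siENG array alone. Over the 12 genes past it on both arrays 1 was at 2 or more, and the median was 0.04, against 0.03 over all genes. With the limit on the mean signal the count and median did not change. The phosphatase Pdp1, which reverses what Pdk1 does, had 301, 225 and 176, a relative log2 ratio of -0.996 just short of the 0.5 threshold, so that kinase and phosphatase of the same enzyme stood on opposite sides. The respiratory chain, by contrast, had 0 of 71 subunits past 2-fold in either direction, with a median of 0.02 and a range of -0.40 to 0.50.

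Among oxygen sensors and HIF subunits, Egln1, the main prolyl hydroxylase that marks HIF, was high with siENG at 203, 197 and 704 (1.58), with a second probe set at 133, 137 and 752 (2.28). It was the only one of 9 past the limit at a ratio of 2 or more. The message of the factor itself, Hif1a, had 2334, 2209 and 2389 (-0.19), its partner Arnt 309.7, 374 and 278 (-0.38), and Vhl, which leads hydroxylated HIF to destruction, 181, 171 and 268 (0.35). Apart from Egln1 none of these stood far outside the spread of genes of similar signal. Jumonji histone demethylases, which need oxygen as HIF hydroxylases do, had 2 of 17 past the limit at 2 or more (11.8% against 1.09%). These were Kdm7a (134, 280.3 and 379, 1.28), which the study also lists as induced by BMP-2, and Jmjd6 (132, 154 and 325, 1.08, second probe set 1.28), while Kdm3a, a known HIF target, had 615, 589.8 and 1363 (0.93). Both Kdm7a and Jmjd6 were among 5 of the 17 that passed the limit on the siENG array alone. Over the 11 past it on both arrays 0 were at 2 or more and the median was 0.08. With the limit on the mean signal 2 of 15 were at 2 or more.

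Collagen-modifying enzymes include HIF targets too. P4ha1, the catalytic subunit of the collagen prolyl 4-hydroxylase, had 424, 376 and 1523 and a relative log2 ratio of 1.62 (second probe set 1.27). It was the only one of 20 past the limit at 2 or more. Its isoenzyme P4ha2 had 531, 583 and 1029 (0.73) and the lysyl hydroxylase Plod2 1146, 1222 and 2401 (0.85), whereas the lysyl oxidase-like crosslinking enzyme Loxl1 was on the other side at 349, 427 and 228 (-0.84). Over all 20 the median was -0.02. None of 16 collagen chains was past 2-fold. Collagen I remained close to the median, with Col1a1 at 0.13 and Col1a2 at -0.12, and Col12a1, a fibril-associated collagen of ligament, had the lowest ratio of the chains at 1838, 1900.4 and 1202 (-0.83, second probe set also -0.83).

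**Figure D2:**
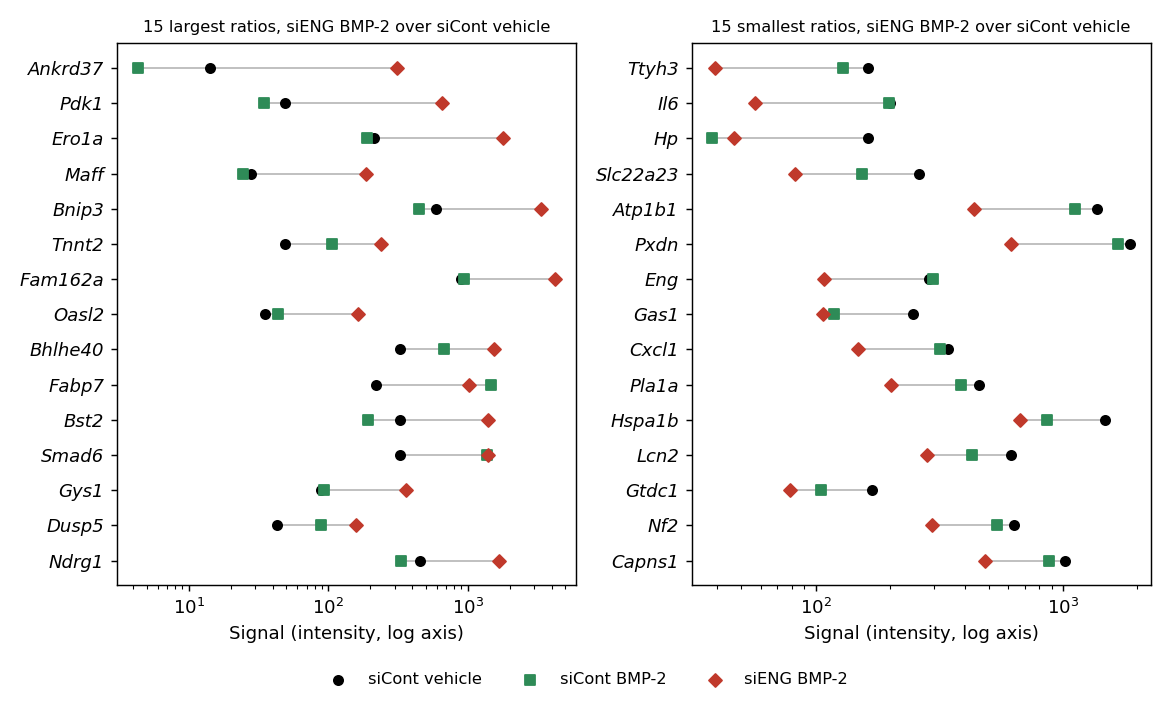
Signals (intensity, log axis) of the 15 genes with the largest and the 15 with the smallest relative ratio of siENG BMP-2 over siCont vehicle, on the 3 arrays, with 1 array per condition. Circles are siCont vehicle, squares siCont BMP-2 and diamonds siENG BMP-2. In the left panel the squares of Pdk1, Ero1a, Bnip3 and Ndrg1 lie near the circles, while those of Fabp7 and Smad6 lie near the diamonds, and in the right panel the squares of Hp and Gas1 lie near the diamonds.

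Genes that the study lists as induced by BMP-2 formed the second large group. The list used here took 62 entries of the study's list, not all of them, and 59 had a probe set. Of 39 past the limit, 11 had a relative ratio of 2 or more (28.2% against the 1.09% of all genes). At 0.5 or less were 0, and 38 lay above 0, with a median relative log2 ratio of 0.58. The study chose this list from the siCont BMP-2 and vehicle arrays, and the vehicle array also enters the ratio here, so neither count is independent evidence of direction. In addition 13 of the 39 passed the limit on the siENG array alone, and with the limit on the mean signal 9 of 32 were at 2 or more, with a median of 0.50. The median was 1.05 for siCont BMP-2 over vehicle and -0.46 between the BMP-2 arrays, siENG over siCont.

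Fabp7, a fatty acid binding protein of brain and developing tissues, had signals of 221, 1468 and 1018 and a relative log2 ratio of 1.98. Smad6 had 325, 1382 and 1388 (1.87) and Smad7 207, 806 and 685 (1.5, second probe set 1.2). Both are inhibitory Smads that BMP signals raise and that then block the receptors. Klf10, an early TGF-β and BMP response factor, had 186, 464 and 649 (1.58), and the metalloproteinase stromelysin-3 (Mmp11) had 222, 737 and 628 (1.28). All of these were low on vehicle and high on both BMP-2 arrays. Tnnt2, the cardiac troponin T, stood apart at 48.9, 106 and 238 (2.06, second probe set 2.11), since its siENG signal was also well above that with siCont and BMP-2. Its brighter probe set is of the kind that can read related transcripts. The homeobox gene Prrx2, of limb and jaw mesenchyme, had 208, 428 and 528 (1.12), and Nav2, a neuron navigator protein, 82.3, 146 and 225 (1.23).

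BMP targets known from other cells are a partly separate list, which shares 6 of its 13 genes past the limit with the study's list. Of the 13, Smad6 and Smad7 reached a relative ratio of 2, 11 lay above 0 and the median relative log2 ratio was 0.39, against 0.84 for siCont BMP-2 over vehicle. Of the 13, 2 passed the limit on the siENG array alone, and over the 11 others the median was 0.18. Hes1, a repressor shared by the BMP and Notch pathways, had 105, 189.5 and 214 (0.81) and lubricin (Prg4), a joint lubricant, 223, 514 and 376 (0.53). Bmper, a secreted modulator of BMPs, was on the lower side at 441, 478 and 332 (-0.63). The Id factors, helix-loop-helix inhibitors and the classic BMP targets, were chosen after their values were seen. Id1 had 1296, 2501 and 2105 (0.48), Id2 1450.4, 2329.5 and 2215 (0.39) and Id3 3541, 5170.0 and 4576 (0.15). For each of them the siENG BMP-2 signal lay below that with siCont and BMP-2 and above vehicle before the shift for brightness, and relative to the median the ratio of siENG BMP-2 over vehicle stayed above 0. For Id3 that ratio was within the robust SD of 0.22 at similar signals.

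Of the genes the study calls endoglin-dependent, 10 were followed here. The study's entry PTGD2 was not among them. All 10 had a probe set and 2 were past the limit in this pair. The sialyltransferase St6galnac4 had 398, 655 and 336 (-0.47) and Tmem268 210.5, 648 and 358 (0.54). Below the limit, where ratios are less precise, nephronectin (Npnt), an integrin-binding matrix protein, had 83.8, 264 and 45.7 (-1.10), and Id4 had 83.6, 233 and 127 (0.38). In the brightest probe set the siCont BMP-2 array was the highest of the 3 for all 10 of them, as the choice of the list requires. The remaining 6, Rnf125, Lgr6, Whrn, Tcim, Irf5 and Dlx1as, had relative log2 ratios of -0.42 to 0.60 to vehicle on the siENG array in that probe set. There the siENG signals of the 10 genes lay between those of the siCont arrays or, for Whrn, St6galnac4 and Npnt, below vehicle. Other Npnt probe sets were also below vehicle (-0.42 and -1.76). Those of Whrn gave 0.22, -0.01 and, at signals of 24.1, 99.0 and 57.8, 1.04. The second St6galnac4 probe set had 85.7, 213 and 90.6 (-0.14), with siENG not below vehicle before the shift. A dimmer Irf5 probe set had 47.3, 45.0 and 28.3 (-0.96), lowest with siENG.

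Downstream of the receptors, 2 of 12 Smads and their regulators past the limit were at 2 or more (16.7% against the 1.09% of all genes). These were the same Smad6 and Smad7, and the median relative log2 ratio was 0.34. The co-repressors Ski (202, 271 and 408, 0.80) and Skil (621, 1367 and 1009.8, 0.48) restrain Smad transcription. The second probe set of Ski gave -0.08, so its 2 probe sets disagree. Smad1, the BMP-activated Smad, had 505, 738 and 858 (0.54), with other probe sets at 0.52 and 0.59. Of 12 ligands and antagonists past the limit none was past 2-fold, with a median of -0.04, Bmper as given above, Bmp1, the procollagen protease, at 650.2, 737 and 496 (-0.61) and Nbl1, a BMP antagonist of the DAN family, at 258, 438 and 447 (0.57). TGF-β targets numbered 23 past the limit with a median of 0.18. Of them 3 were at 2 or more (Bhlhe40, Klf10 and Smad7, 13% against 1.09%) and 1 at 0.5 or less. The lower one was tensin 1 (Tns1), which links integrins to actin, at 1375, 901 and 721 (-1.15, other probe sets -1.06 and -0.93).

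**Figure D3:**
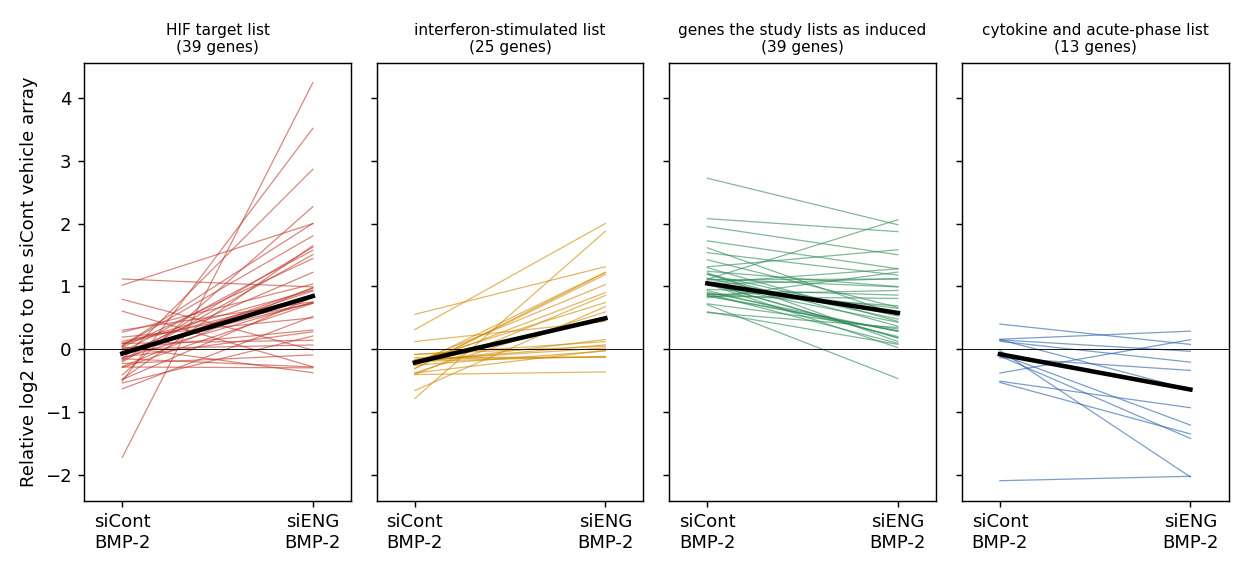
Log2 ratio to the siCont vehicle array, relative to the median of each comparison, on the siCont BMP-2 and siENG BMP-2 arrays for genes past the limit in 4 lists. Thin lines are genes and the thick black line is the list median; both ratios share the vehicle array, with 1 array per condition. The medians were -0.07 and 0.85 for HIF targets, -0.21 and 0.49 for interferon-stimulated genes, 1.05 and 0.58 for genes the study lists as induced by BMP-2, and -0.08 and -0.64 for cytokine and acute-phase genes.

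Interferon-stimulated genes are antiviral genes that type I interferon switches on through Stat and Irf factors bound to a repeated GAAA element. Of 25 past the limit (46 had a probe set), 7 reached a relative ratio of 2 (28.0% against the 1.09% of all genes) and 0 were at 0.5 or less. The median relative log2 ratio was 0.49 and 19 lay above 0, whereas the median on the siCont BMP-2 array was -0.21. The limit itself set part of these values, since 7 of the 25 passed it on the siENG array alone. Over the 18 past the limit on both arrays 4 reached a ratio of 2, or 22.2% against 0.69% of all genes. The median there was 0.10, against 0.03. With the limit on the mean signal the values were 4 of 19 (21.1% against 0.872%) and 0.12, against 0.04. The medians were thus nearer to those of all genes, and the shares at 2 or more remained above them. With all arrays scaled to the same trimmed mean, which left 6854 genes past the limit and took Dtx3l, Ifih1, Oas1a and Oasl2 of the list below it, the median was 0.14. The interferon list too was chosen with earlier results of these data known, so its shares are not independent evidence. None of the leukocyte markers was past the limit, as given above.

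Oasl2, an antiviral protein of the oligoadenylate synthetase family, had signals of 34.9, 43.6 and 163 and a relative log2 ratio of 2.0, and its relative Oas1a 61.9, 52.6 and 169 (1.23). Bst2, which tethers budding virus to the cell surface, had 328, 191 and 1404 (1.88). Isg20, an RNA exonuclease, had 79.4, 117 and 230.1 (1.31) and the secreted glycoprotein Lgals3bp 164, 133 and 446 (1.22). Apart from Isg20 and Oasl2, these genes were lower with siCont and BMP-2 than with vehicle, and all were highest with siENG. Oasl2, Oas1a and Isg20 passed the limit on the siENG array alone. Below 0 lay 6 of the 25 past the limit, named here after their values were seen. They were Ifitm2 (-0.36), Samhd1 (-0.13), Igtp (-0.12), Ifit2 (-0.11), Irf1 (-0.03) and Ifi35 (-0.02). Antigen presentation genes, which interferon also raises, had 0 of 7 past 2-fold, but all 7 lay above 0 with a range of 0.16 to 0.56. They included the class I molecules H2-K1 (905, 863 and 1482, 0.49) and H2-D1 (1502, 1290.1 and 2410.2, 0.46), whose probe sets may also read related class I genes, and the immunoproteasome subunit Psmb10 (190.0, 169.9 and 326, 0.56).

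Promoters of 2 interferon-stimulated genes are shown for the GAAA repeat. They are again the 250 bases before the start in RefSeq on GRCm38.p6, on the strand of the gene, and capitals mark GAAA followed after 2 bases by a second GAAA, of which both promoters hold 2 overlapping copies.
Bst2 (chr8:71537473-71537722, minus strand): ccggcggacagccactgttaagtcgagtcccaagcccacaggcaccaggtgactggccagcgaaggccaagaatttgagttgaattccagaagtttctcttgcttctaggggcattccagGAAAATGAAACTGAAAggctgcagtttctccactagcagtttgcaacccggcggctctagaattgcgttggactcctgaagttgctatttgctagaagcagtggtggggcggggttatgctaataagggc
Oas1a (chr5:120907526-120907775, minus strand): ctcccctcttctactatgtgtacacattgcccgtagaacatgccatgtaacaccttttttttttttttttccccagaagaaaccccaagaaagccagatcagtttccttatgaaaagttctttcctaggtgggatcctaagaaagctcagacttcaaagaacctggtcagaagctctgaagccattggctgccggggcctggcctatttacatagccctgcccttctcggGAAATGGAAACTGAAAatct
The element lay 130 bases before the start of Bst2 and 20 bases before that of Oas1a. On either strand it was found in 3 of 7 interferon-stimulated genes at a relative ratio of 2 or more (these and Ifitm3, chosen after its values were seen), in 3.4% of all promoters and in 3.6% of genes past the limit.

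Genes of the unfolded protein and amino acid responses stood on the same side. Of 35 past the limit, 3 reached a relative ratio of 2 (8.57% against the 1.09% of all genes) and 0 were at 0.5 or less. Above 0 lay 30 of the 35, beside 4082 of all 7132 genes, and the median relative log2 ratio was 0.36. Ddit3, the stress factor CHOP, had 529.7, 535 and 1468 (1.25), though a dimmer probe set gave 0.14. Herpud1, of endoplasmic reticulum-associated degradation, had 357, 372 and 940.1 (1.17, second probe set 0.58) and the cystathionase Cth, which makes cysteine, 235, 212 and 612 (1.16). The pseudokinase Trib3 had 206, 312 and 456 (0.93, second probe set 1.06), and was the only one of these named genes with a clearly higher siCont BMP-2 signal than vehicle.

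Immediate-early and AP-1 genes had 3 of 20 at 2 or more (15% against the 1.09% of all genes). Of these, Maff and Dusp5 passed the limit on the siENG array alone. With the limit met on both arrays 1 of 16 was at 2 or more (6.25% against 0.69% of all genes). The small Maf factor Maff, which pairs with Nrf2 or represses transcription on its own, had 28.0, 24.4 and 185 and a relative log2 ratio of 2.51, with both siCont signals low. Dusp5, a phosphatase of nuclear ERK, had 42.7, 89.1 and 157 (1.66), and Egr1, an early growth response factor also of tendon, 552, 629.8 and 1319 (1.04). Targets of Nrf2 itself had 0 of 19 past 2-fold, with a median of -0.08. Of 9 circadian genes past the limit, 2 were at 2 or more, Bhlhe40 and the clock repressor Ciart (92.5, 85.2 and 296, 1.46). Ciart passed the limit on the siENG array alone, and over the 8 genes past it on both arrays 1 was at 2 or more. The mitophagy and autophagy list had 2 of 19, Bnip3 and Atg7, an enzyme of autophagosome formation (66.2, 70.9 and 177, 1.2), and a median of 0.07. Atg7 too passed on the siENG array alone, which left 1 of 18 with the limit met on both arrays.

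On the lower side were several cytokine, chemokine and acute-phase genes. Of 13 past the limit, 5 had a relative ratio of 0.5 or less (38.5% against the 0.855% of all genes) and 0 of 2 or more, with a median relative log2 ratio of -0.64, against -0.08 for siCont BMP-2 over vehicle. Of these 5, 3 (Il6, Hp and Cxcl1) passed the limit on the vehicle array alone, where they were high, so the limit set part of the count. Over the 10 genes past the limit on both arrays 2 were at 0.5 or less and the median was -0.27, and with the limit on the mean signal the values were 3 of 11 and -0.34. Over the members that also passed the 90th percentile of signal, 525.6, the median was -0.03, so it rests on the dimmer members. Il6, the cytokine that drives the acute-phase response, had signals of 199, 197 and 56.7 (-2.03). The neutrophil chemokine Cxcl1 had 341, 318 and 149 (-1.42), with other probe sets at -1.19 and -0.39, and the siderophore-binding lipocalin Lcn2 617, 429.9 and 283 (-1.35). Osmr, a receptor chain of the Il6 family, had 442, 421 and 223 (-1.21, second probe set -1.02). For Il6, Cxcl1 and Osmr the siCont arrays were alike and siENG was low. The haemoglobin scavenger haptoglobin (Hp), also of the acute phase, took another course at 162, 38.2 and 46.5 (-2.02), low on both BMP-2 arrays.

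Hp also stands on the study's list of genes suppressed by BMP-2. Of 8 such genes past the limit, 3 were at a relative ratio of 0.5 or less, 7 lay below 0 and the median was -0.86, beside -1.01 for siCont BMP-2 over vehicle. Of the 8, 3 passed the limit on the vehicle array alone, and over the 4 past it on both arrays 1 was at 0.5 or less and the median was -0.56. This list too was chosen with the vehicle array, so its direction is not independent evidence. The lymphangiogenic factor Vegfd had 417, 183 and 207 (-1.23, other probe sets -1.14 and -1.29) and the glycosyltransferase Mgat3 166, 78.2 and 84.4 (-1.19). Eps8, an actin-capping adaptor, had 216, 144 and 126 (-0.9996) just outside the threshold in its brightest probe set, and -1.31 in both others. The leucine-rich proteoglycan osteoglycin (Ogn) had 218, 114 and 155 (-0.71, second probe set -1.23). Selenbp1, a selenium-binding protein, was the exception, with siCont BMP-2 lowest and siENG highest at 118, 49.1 and 181 (0.39, second probe set 0.50).

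The smallest ratio of all was that of Ttyh3, a membrane anion channel of the tweety family, at 162, 129 and 39.2 (-2.27). Slc22a23, a transporter of the organic ion family, had 262, 154 and 82.1 (-1.89). Both were lowest with siENG, with signals there well above the Bacillus controls. Atp1b1, the beta subunit of the sodium pump, had 1366, 1116 and 436 (-1.87), and its 3 other probe sets gave -1.21, -1.92 and -2.22. Peroxidasin (Pxdn), which crosslinks collagen IV in basement membranes, had 1860.0, 1664 and 613 (-1.82). At these signals the robust SD was 0.28 for Atp1b1 and 0.22 for Pxdn, so both stood far outside that spread.

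Gas1, a membrane protein of growth arrest and a Hedgehog co-receptor, had 248, 119 and 107 (-1.44, second probe set -0.90), low on both BMP-2 arrays. The phospholipase Pla1a had 456, 387 and 202 (-1.40) and the heat shock protein Hspa1b 1473, 865 and 669 (-1.36), with other Hspa1b probe sets at -1.36 and -1.29 that may share sequence with a near-identical neighbouring gene. Merlin (Nf2), which restrains growth at cell contacts, had 633, 539 and 296 (-1.32), and 3 other probe sets gave -1.28, -1.25 and -1.50. The calpain small subunit Capns1 had 1022, 874 and 485 (-1.30) and Gtdc1, a predicted glycosyltransferase, 168, 105 and 78.6 (-1.32). In this set siCont BMP-2 lay between the other arrays, nearer to vehicle for Nf2, Pla1a and Capns1.

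A gap junction gene and a pair of prostaglandin genes had their highest signal on the siCont BMP-2 array and their lowest with siENG. Connexin 43 (Gja1), the main gap junction protein of fibroblasts and bone cells, had 1373, 1974 and 752 (-1.09), and 5 other probe sets gave -0.93 to -1.22. The prostaglandin synthase Ptgs2 had 316, 679 and 194 (-0.92, second probe set -0.51) and the prostaglandin E receptor Ptger4 449, 685 and 307 (-0.77), with a dim second probe set at 33.2, 68.7 and 37.6 (-0.04). The other prostaglandin genes past the limit did not share this order. The phospholipase Pla2g4a, which frees arachidonic acid, had 918, 1169.9 and 953 (-0.17), and the exporter Abcc4 was highest with siENG at 234, 302 and 316 (0.21). None of the 4 was past 2-fold.

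Among matrix proteases and their inhibitors, 1 of 15 past the limit was at 2 or more (6.67% against the 1.09% of all genes). Another 2 were at 0.5 or less (13.3% against 0.855%). Beside Mmp11, the aggrecanases Adamts4 (229.8, 209.5 and 122, -1.13) and Adamts5 (1209.8, 604 and 664, -1.09, other probe sets -0.999 and -1.25) were on the lower side. Adamts5 was low on both BMP-2 arrays and Adamts4 with siENG. Adamts4 passed the limit on the vehicle array alone, and over the 13 genes past it on both arrays 1 was at 0.5 or less. The inhibitor Timp1 had 1055, 1532 and 1919.5 (0.64). Of 18 ligament matrix genes, 2 were at 2 or more (11.1% against the 1.09% of all genes). These were Igfbp7, a matrix-bound binding protein of the IGF family (1101, 1406 and 2774, 1.11), and matrix Gla protein (Mgp), an inhibitor of calcification (256, 206 and 631, 1.08). Fibromodulin (Fmod), which shapes collagen fibrils, stood just under the threshold at 341, 810.1 and 793 (0.997), with 5 other probe sets from 0.53 to 1.45, and Ccn1, a matricellular protein, at 1103, 1836 and 2563 (0.995, other probe sets 0.60 to 0.68). Ccn5, a matricellular protein of the same family, had 1070.5, 829.5 and 659 (-0.92).

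FGF and IGF genes were divided, with 5 of 10 past the limit above 0, 5 below and a median of 0.01. Beside Igfbp7 at a ratio of 2 or more, 2 were at 0.5 or less (20% against the 0.855% of all genes). The IGF receptor Igf1r had 374, 311 and 204 (-1.10, other probe sets -1.04, -0.64 and -0.22) and the decoy FGF receptor Fgfrl1 179, 160.4 and 101 (-1.05). Fgfrl1 passed the limit on the vehicle array alone, and over the 8 genes past it on both arrays 1 was at 0.5 or less. Of 15 Wnt pathway genes past the limit, 2 were at 0.5 or less (13.3% against the 0.855% of all genes) and 0 at 2 or more. Lgr4, the R-spondin receptor, had 1224, 1212 and 610.0 (-1.23) and the membrane-bound Wnt inhibitor Apcdd1 248, 190.5 and 122 (-1.25, other probe sets -0.75 to -1.54). Apcdd1 passed the limit on the vehicle array alone, and over the 10 genes past it on both arrays 1 was at 0.5 or less. Among 14 guidance genes the median was -0.35 and 11 lay below 0. Semaphorin Sema3e had 246, 171 and 122 (-1.24) with 3 other probe sets at -0.86 to -1.09, whereas the netrin receptor Unc5b, on the study's list of induced genes, had 350.4, 945 and 648 (0.67). Sema3e, the only guidance gene at 0.5 or less, passed the limit on the vehicle array alone. Over the 12 guidance genes past it on both arrays the median was -0.31.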

How the data were processed

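Total RNA of PDL-L2 cells was read on Affymetrix Mouse Genome 430 2.0 arrays, 1 for each of 3 conditions. For every probe set of an array, the values deposited by the authors were a linear intensity, made with GCOS 1.4 according to the submitters' processing notes. How signals were summarised, background-corrected and scaled was not given in the sources used here. Precision was limited by the number of arrays.

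Signals listed at 0 were set to 0.1 and control probe sets were left out of ratios. Genes were named from the platform annotation through RefSeq of GRCm38.p6. Of 45101 probe sets, 34958 had 1 symbol, 932 several and 9211 none, and probe sets with several or none were left unnamed. A gene was represented by its probe set of highest mean log2 signal over the pair. The log2 ratio was centred on the median of probe sets past the lower signal limit. Genes named were endoglin, the 15 largest and 15 smallest ratios past the upper limit, up to 5 members of each of 50 gene lists (any member of lists under 12 genes), and up to 8 genes of each study list. The members and lists were chosen with earlier results of these data known, and genes outside this rule are marked as chosen after their values were seen. The robust SD (from the median absolute deviation) was taken in 20 bins of mean signal. Promoters came from RefSeq, with an entry for 5912 of the 7132 genes past the limit. No test was run, since each condition had 1 array. The script was tested on simulated data. Other centrings, signal limits and probe set rules were tried, a limit met on both arrays and one on their mean log2 signal being added after seeing the data. Python 3.11.15, numpy 2.4.6, pandas 2.3.3, scipy 1.17.1, statsmodels 0.14.6 and matplotlib 3.10.9 were used.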

Additional observations from a re-analysis of the deposited data

How the results depend on the processing

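The 12 alternatives, 2 of them chosen after seeing the data, changed the centring, the limit on signal, the probe set or the handling of low signals. Signals as deposited gave 161 genes at a ratio of 2 or more and 28 at 0.5 or less, in place of 78 and 61, and all 28 were among the 61. A limit at the median signal gave 250 and 308, no limit 1609 and 2376, a limit at the 90th percentile 40 and 27, and the limit met on both arrays, one of the added pair, 44 and 40, which removes by construction genes low on either array. The mean over probe sets kept 57 of the 78 genes and 29 of the 61. The median of interferon-stimulated genes was 0.14 with trimmed-mean scaling and 0.071 at the 90th percentile, both of which removed members, 0.0961 with the limit met on both arrays and 0.12 with it on their mean signal. That of cytokine and acute-phase genes was -0.34 at the median limit, without a limit, with the mean over probe sets and with the limit on the mean signal, -0.27 with the limit on both arrays, and -0.0322 at the 90th percentile. The prostaglandin median, over 4 genes in the report, was -0.17 at the 90th percentile and with the mean over probe sets, and turned to 0.0027 without a limit. Other medians that moved were osteoblast genes at -0.27 without a limit and, at the 90th percentile, ligament and tendon identity genes at 0.48, FGF and IGF genes at 0.56 and suppressed study genes at -0.31, the last also at -0.56 with the limit on both arrays. Limits add or remove members by construction, and any other cause was not tested. Of the other values of counts and list medians 512 moved by less than their spread, as did 2281 values of named genes, while 48 moved by more and none past 2-fold changed sign. No paired analysis was possible because each condition had 1 array. Dim signals limit what can be read, since the robust SD was 0.63 at mean signals of 16.3 to 22.5.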

Other observations

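Proliferation and growth genes were measured widely and stood close to the median. Of 35 S phase genes and 38 G2 and M phase genes past the limit none was past 2-fold, with median relative log2 ratios of -0.07 and -0.17, and 27 of the 38 lay below 0. Prc1, which bundles spindle microtubules, had the lowest mitotic ratio (854, 790.1 and 559, -0.83, second probe set -0.91), and cyclin E1 (Ccne1), which starts replication, the lowest of the S phase list (385, 372 and 231, -0.96). Targets of p53 had 0 of 18 past 2-fold and a median of 0.25, with the antiproliferative Btg2 highest at 316, 443 and 630.5 (0.77). The median was 0.06 over 28 ribosomal proteins, 0.07 over 8 genes of small RNA silencing, and 0.08 over 28 genes of cholesterol and fatty acid synthesis, all without a gene past 2-fold.

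Differentiation genes were divided. Of 5 osteoblast genes past the limit, only Mgp reached a ratio of 2, and the bone sialoprotein gene Ibsp and the osteoblast factor Sp7, chosen after their values were seen, were below the limit at 12.5, 11.7 and 4.6 and 38.4, 56.5 and 26.3. None of 16 cartilage genes was past the limit. Ligament and tendon identity genes had 2 of 12 at 2 or more (Prrx2 and Egr1), 1 at 0.5 or less (Gas1) and a median of -0.05. Gas1 passed the limit on the vehicle array alone, and over the 11 genes past it on both arrays 0 were at 0.5 or less. Contractile genes had 1 of 27 at 2 or more (Tnnt2, past the limit on the siENG array alone) and a median of -0.03. The smooth muscle marker Tagln had 2254, 2304 and 4055 (0.63). Of 9 adipocyte and lipid droplet genes only Hilpda reached a ratio of 2, while the factor Cebpd had 130.1, 112 and 282 (0.90). Both Hilpda and Cebpd passed the limit on the siENG array alone. Krueppel-like factors had 1 of 7 at 2 or more (Klf10) and a median of 0.26, with Klf9 at 2611, 3286 and 4119 (0.44). The Notch list had 0 of 12 past 2-fold and a median of -0.23, and Vegfa, the HIF-responsive angiogenic factor, had 182, 227 and 359 (0.76, second probe set 0.80) among 11 angiogenic genes with a median of 0.10.

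The following genes past 2-fold belong to none of the lists and were chosen after their values were seen. The small nucleolar RNA host genes Zfas1 (648, 602 and 2174, 1.53) and Snhg12 (246, 267 and 620.3, 1.12) were both highest with siENG. So were the DNA demethylation enzyme Tet2 (66.8, 78.1 and 207, 1.41, second probe set 1.03) and Sap30, a subunit of the Sin3 deacetylase complex (246, 282 and 737, 1.36). On the lower side were the cyclin-dependent kinase Cdk6 (471, 329 and 268, -1.03, other probe sets -1.12 and, at signals of 28.0 and 26.2, -0.32), the cytosolic isocitrate dehydrogenase Idh1 (2809, 2005 and 1551, -1.08, second probe set -1.07) and Deptor, an inhibitor of mTOR, with 491, 402 and 252 (-1.18) and 4 other probe sets from -1.03 to -1.63. All 3 were lowest with siENG, and all 3 were also lower with siCont and BMP-2 than with vehicle. The kinase Hipk2, which acts in p53 and TGF-β signalling, had 808, 789.5 and 397 (-1.24), with 6 other probe sets from -0.05, at signals of 34.9 and 39.3, to -1.35.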
